A study of Homo sapiens with 40 samples.

Results

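The coding regions shorter than 300 nt, which is fewer than 100 codons, were taken from a deposited catalogue of transcript models. The lengths of all coding segments of a model were summed, and models of a gene with the same coding segments were counted once. This gave 552 short coding regions among 14815 distinct ones (3.73%, 95% Wilson interval 3.43 to 4.04), carried by 608 models of 498 genes. In 201 genes every coding region was short (221 regions), and in the other genes (3.46% of the 8579 genes with a coding region) another model carried a longer one (331 regions). Members were chosen by their measured coding length, so those lengths are given as a description. Intervals cover counting error only.

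The catalogue belongs to a study of human H9 embryonic stem cells, an established line, and of neural progenitor cells made from them by dual-SMAD inhibition. From each cell type RNA was taken from the cytosol and from 3 sucrose gradient fractions: mRNA with 1 ribosome (monosome), with 2 to 4 (called light polyribosome) and with 5 or more (called heavy polyribosome). There are 40 libraries in 16 groups: 8 groups of 2 libraries were read with long reads (16 in all), and 8 groups of 3 with short reads (24 in all). The catalogue is a single set of models with no value per library, so no difference between cell types or fractions was measured and depth is unknown. Of 8 stem cell markers 6 had a model (LIN28A and TDGF1 did not), as did 5 of 8 progenitor markers (SOX1, LHX2 and HES5 did not). None of these markers had a short coding region, beside 5.26% of all genes with a model. The markers are too few to tell their absence from that share.

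Proteins of this size include ribosomal and spliceosomal subunits, small subunits of the respiratory chain, ubiquitin-like modifiers and membrane micropeptides. A ribosome usually starts at an AUG reached by scanning from the 5′ end of the mRNA, and a purine at position −3 and a G at position +4, counted from the A of the AUG as +1, favour its use. A stop codon well upstream of the last exon junction can send an mRNA to nonsense-mediated decay, the pathway that removes messages with early stops. An annotated coding region is a prediction from sequence and does not show that a protein was made.

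The starts of 9 short coding regions are shown because they let the first codon of a predicted coding region be read directly. They cover both kinds of gene. Each runs from 9 bases before the first codon to 12 bases after it, 5′ to 3′ on the coding strand, and capitals mark the first codon.
SNRPE: ctacgcaggATGtcaggactagga
SMIM20: cctgacgccATGtcccggaacctg
ANAPC13: ggcgcgggaATGcgttcgttgctc
FLVCR1-DT: gaaggatgcATGgcccggggtctc
MOCS2-DT: gcttcgcagATGggccgtggtggt
UQCRQ: gccgccacaATGggccgcgagttt
MAD2L1: tccctggccATGgcgctgcagctc
NDUFAF2: gtggacggcATGggttggtctcag
CENPX: gctgcggtcATGgagggagcagga

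These letters come from RefSeq windows around gene starts on GRCh38.p14. SNRPE lies at chr1:203861719-203861742 on the plus strand, SMIM20 at chr4:25914305-25914328 (plus), ANAPC13 at chr3:134485892-134485915 (minus), FLVCR1-DT at chr1:212858052-212858075 (minus) and MOCS2-DT at chr5:53109921-53109944 (plus). UQCRQ lies at chr5:132866873-132866896 (plus), MAD2L1 at chr4:120066720-120066743 (minus), NDUFAF2 at chr5:60945247-60945270 (plus) and CENPX at chr17:82022847-82022870 (minus). The first 5 belong to genes with only short coding regions and the last 4 to genes that also had a longer one. In MAD2L1, NDUFAF2 and CENPX the start shown is also the start of the longest coding region of the gene. FLVCR1-DT and MOCS2-DT are listed by RefSeq as long non-coding RNA genes.

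The first codon could be read for 51 short coding regions, and it was ATG in 51 of 51 (Wilson interval 93.0 to 100%). Of regions of 300 to under 330 nt it was ATG in 72 of 101 (71.3%, 61.8 to 79.2), and of all that could be read in 2892 of 2972 (97.3%). The groups differ in how often the coding region begins within 2 nt of the model's first base. That was so in 43 of 458 regions of 300 to under 330 nt and in 2 of 552 short ones. Whether the first codons other than ATG were among those starts was not tested. The last codon fell in a window for 6 short regions and was a stop codon in 6 of 6. For 35 short regions the whole context could be read, and 32 of 35 had A or G at −3 (91.4%), beside 1954 of 2157 longer regions (90.6%). G at +4 was present in 20 of 35 (57.1%), beside 72.9% of the longer regions. Both bases were present in 48.6% against 67.5%, and neither in 0 of 35 against 3.94%. Some of the 35 starts, such as those of MAD2L1, NDUFAF2 and CENPX, are also starts of longer regions. The short and longer groups are therefore not separate sets of starts. SSNA1 entered the 35 more than once with the same start. MOCS2-DT has C at −3 and FLVCR1-DT has T at −3, and in both G is at +4.

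Short coding regions were more numerous close to the limit than far below it, and more numerous still just past it. Counted in bins of 30 nt, there were 17 regions under 30 nt, 48 at 150 to 177 nt, 100 at 210 to 237 nt and 122 from 270 nt to the limit, and then 458 at 300 to under 330 nt and 404 in the next bin. Just inside the limit 20 regions had 98 codons and 15 had 99, and just outside it 56 had 100 and 52 had 101 codons. The bins from 330 nt to 600 nt held 359 to 404 regions each.

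**Figure D1:**
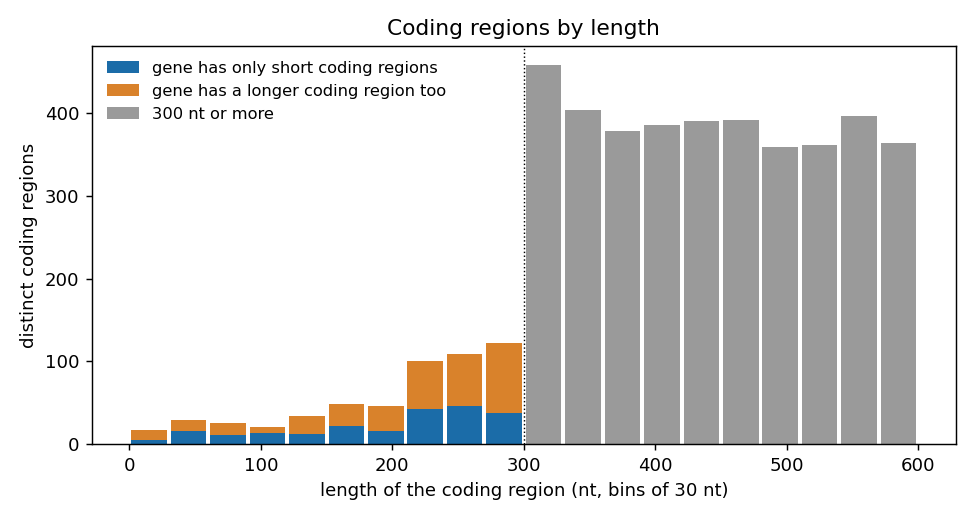
Number of distinct coding regions (vertical axis) by coding length in bins of 30 nt (horizontal axis). Below the dotted line at 300 nt no bin exceeds 122 regions, and the first bin above it holds 458.

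The 5′ untranslated region and the coding region added up to no less than the length of 99 codons in each of the 608 short models. Their sum had a median of 383.5 nt and a maximum of 1160 nt. In 16 models the sum was under 300 nt, and in 4 it was exactly the length of 99 codons. CRIP1, a LIM domain protein, had 63 nt before a coding region of 234 nt. MRPL52, a mitochondrial ribosomal protein, had 267 nt before 30 nt, POLR3F, an RNA polymerase III subunit, 108 nt before 189 nt, and RPS21, a protein of the small ribosomal subunit, 51 nt before 246 nt. These 4 models divide the same sum very differently between 5′ sequence and coding region. Whether a minimum length of open reading frame in the prediction set this floor was not tested.

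**Figure D2:**
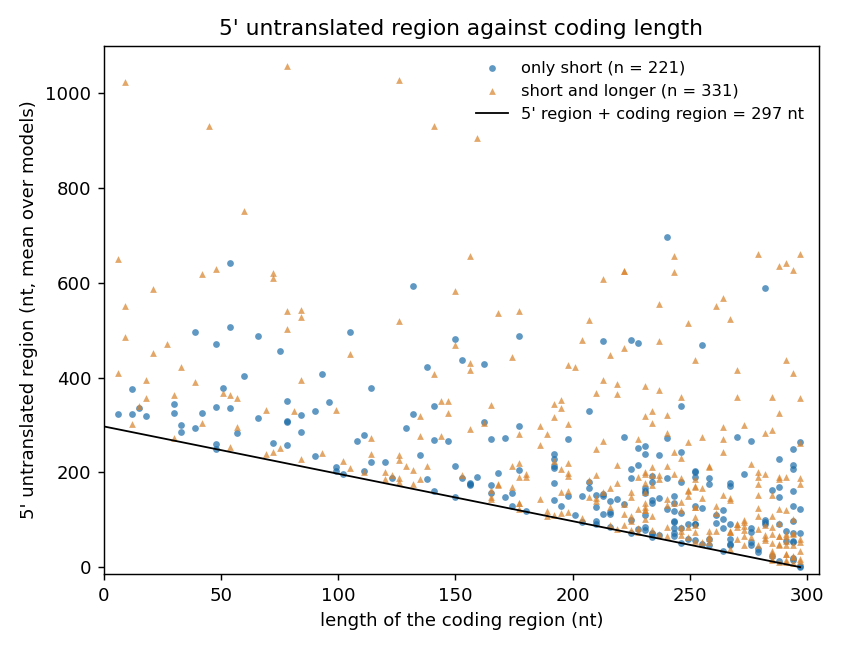
Length of the 5′ untranslated region (vertical axis, nt, mean over models) against coding length (horizontal axis, nt) for the 552 short coding regions, by kind of gene. No point lies below the line where both lengths add up to 99 codons.

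The reading frame was open back to the first base of the model in the short models where it could be read. In 55 short models the 5′ region lay wholly inside a RefSeq window and the coding region began with ATG. Their 5′ regions had at most 193 nt and their coding regions at least 204 nt, so the shortest members were not read. Some coding regions, such as that of CCS, entered with several models, which the interval treats as separate. Of these models 0 of 55 had an in-frame stop codon between the first base and that ATG (Wilson interval up to 6.53%). An in-frame ATG lay there in 0 of 55. Of models with 300 to under 400 nt, 35 of 225 had such a stop (15.6%), and of all with 300 nt or more 534 of 2711 (19.7%). In the 55 short models the open frame, from the first base to the end of the coding region, had a median of 330 nt. It was shortest in FLVCR1-DT at 99 codons and longest in MSRB1 at 447 nt. If the prediction required that many codons of open frame, a short region behind an in-frame stop might not have been listed. This was not tested, and the groups were not matched for 5′ length. The 0 of 55 is therefore given as a description and not as a trait of short regions. Few short coding regions touched a model's end. The start lay within 2 nt of the first base in 2 of 552 (0.362%, background 1.15% of all coding regions) and the stop within 2 nt of the last base in 3 of 552 (background 3.21%). At 300 to under 330 nt the start lay at the first base, by the same measure, in 43 of 458 (9.39%). No short model had less than 99 codons of 5′ and coding sequence together. A short region could therefore start within 2 nt of the first base only if it had 99 codons, and 2 of those 15 did. The low share among the 552 restates that smallest sum and is no separate trait.

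Among the 201 genes with only short coding regions, 125 are protein-coding in RefSeq (62.2%), 40 are long non-coding RNA genes (19.9%), 11 are pseudogenes and 25 had no RefSeq match. The share that RefSeq lists as something other than protein-coding was 25.4% (51 of 201), beside a background of 2.89% of all genes with a coding region. In genes with a longer coding region as well it was 4.38% (13 genes), and 282 were protein-coding (94.9%).

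Family counts are set beside the catalogue, where 2.12% of the 9460 genes with a model had only short coding regions and 5.26% had any. Many of the lists hold proteins known to be small, so a high share describes the choice of the list. Of 82 cytosolic ribosomal protein genes with a model, 2 had only short coding regions (2.44%, close to the catalogue), 73 only longer ones and 7 no coding region at all. RPL37A of the large subunit had 279 nt (93 codons, chr2:216498875-216501404, plus strand) between 31 nt of 5′ and 60 nt of 3′ untranslated sequence. RPS21 had 2 coding regions, of 246 and 252 nt. Sm and LSm proteins form the rings around spliceosomal RNAs, and 4 of 19 of their genes had only short coding regions (21.1%). SNRPE had 255 nt (chr1:203861728-203869932, plus strand), SNRPF 261 nt, LSM8 291 nt and LSM2 both 43 and 96 codons. SNRPE carried 147 nt of 3′ untranslated sequence, SNRPF 1034 nt and LSM8 2343 nt.

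Small proteins of the mitochondrial inner membrane were found in each of the respiratory complexes listed. Of 33 genes for complex IV subunits and their assembly factors, 5 had only short coding regions (15.2%) and 3 had a longer one too. COX8A had 210 nt (chr11:63974681-63976320, plus strand), COX6C 228 nt, COX7A2 252 nt and HIGD1A, a hypoxia-inducible inner membrane protein, 282 nt. CMC2, an assembly factor, had 4 distinct coding regions of 153, 168, 225 and 240 nt. Of 15 complex III genes 3 had only short ones (20.0%), all assembly factors: UQCC5 with 213 nt, UQCC6 with 216 nt and UQCC3 with 282 nt. Complex I was close to the catalogue with 1 of 45 (2.22%), NDUFB3 with 99 codons. The ATP synthase had 1 of 18 (5.56%), ATP5MF with 285 nt, and the import list 2 of 26 (7.69%), TIMM8A and ROMO1 with 98 and 80 codons. Of 78 mitochondrial ribosomal protein genes 0 had only short coding regions and 7 had a short and a longer one (8.97%).

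Of 21 genes for ubiquitin-like proteins and conjugation cofactors 3 had only short coding regions (14.3%). UFM1, which is conjugated to ribosomal and other proteins, had 258 nt, SUMO2, a small ubiquitin-like modifier, 288 nt and ANAPC13, a subunit of the anaphase-promoting complex, 276 nt. Of 8 dynein and myosin light chain genes 2 did so, DYNLL2 with 270 nt and DYNLRB1 with 192 and 291 nt. Small integral membrane proteins gave 5 of 17 genes (29.4%): SMIM11 with 78 nt, SMIM3 with 99 nt, SMIM20 with 204 nt, SMIM5 with 234 nt and SMIM8 with 98 codons. The larger list of TMEM genes, named for a transmembrane segment, gave 2 of 132 (1.52%). Any short coding region was found in 6 of 132 (4.55%), and both shares were close to the catalogue. SEC61B, a subunit of the translocation channel of the endoplasmic reticulum, had 123 nt after 188 nt of 5′ sequence, and DPM3, a subunit of the dolichol-phosphate-mannose synthase, 279 nt. The metallothioneins MT1G and MT1X, which bind zinc and copper, had 150 and 156 nt, and S100A10, the annexin A2 partner, 98 codons.

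Of 11 homeobox and stem cell genes with a model 0 had a short coding region, beside 5.26% over the catalogue. A list this small cannot tell 0 from that share. The following single genes belong to no list. NNAT, an imprinted proteolipid of the developing brain, had 246 nt (chr20:37521332-37522759, plus strand) with 928 nt of 3′ untranslated sequence. NRGN, a calmodulin-binding protein of dendrites, had 237 nt in 2 models with 830 nt. CD24, a surface glycoprotein, had 243 nt with 1829 nt, and CTNNBIP1, an inhibitor of the binding of beta-catenin to TCF factors, 246 nt with 2440 nt. SNN, stannin, had 267 nt with 2825 nt, the longest 3′ untranslated region among all short members. The selenoprotein genes SELENOK and MSRB1 had 276 nt (92 codons) and 285 nt (95 codons). Selenoproteins read an internal UGA as selenocysteine, and whether these coding regions end at that UGA was not tested.

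**Figure D3:**
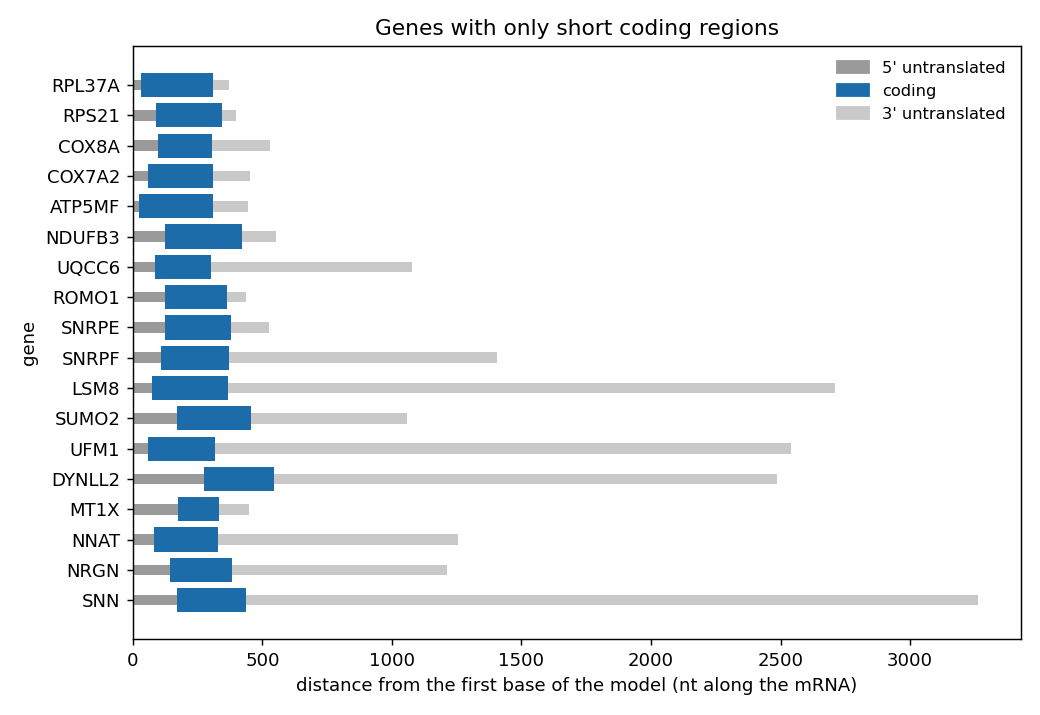
Layout along the mRNA of 18 genes with only short coding regions, in nt from the first base of the model (thin dark grey bar, 5′ untranslated; thick blue bar, coding; thin light grey bar, 3′ untranslated). The coding bars are all under 300 nt while the 3′ untranslated bars run from 54 nt in RPS21 to 2825 nt in SNN; where a gene had several regions the longest is drawn.

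Some genes of the class encode large proteins and were covered by a small piece of the locus. Among the 125 protein-coding genes the models covered a median of 87.3% of the RefSeq gene span, beside 98.3% over all protein-coding genes with a coding region. Coverage was under 25% in 34 of 125 (27.2%, Wilson interval 20.2 to 35.6), beside 348 of 8209 (4.24%), and 90% or more in 59 of 125 (47.2%), beside 69.6%. MACF1, a giant linker of actin and microtubules, had a single model with 54 coding nt that covered 0.592% of its span. CDK19, a Mediator kinase, had 141 nt over 1.09%, NUP98, a nuclear pore protein, 216 nt over 1.31%, and LAMA5, a laminin chain, 258 nt over 2.05%. SF3B1, a core splicing factor, had 225 nt over 2.89%, and SUPT16H, a histone chaperone subunit, 252 nt over 3.56%.

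Among genes with only short coding regions, the shortest were those of non-coding genes. FGF13-AS1 had 6 nt, and FOXD3-AS1 and LINC00339 had 12 nt each. Among protein-coding genes XPNPEP3, a mitochondrial peptidase, had 30 nt and TRIM69, a ubiquitin ligase, 33 nt. The models of XPNPEP3 covered 7.43% of its RefSeq span, and the single TRIM69 model covered 0.0% of its span. Of 236 antisense RNA genes with a model, 171 had no coding region, and of the 65 that had one 19 had only short ones (29.2%, beside 2.34% of all genes with a coding region). Of 111 genes named as divergent transcripts 82 had none, and of the other 29 genes 8 had only short ones (27.6%). Of 99 genes named LINC 67 had none, and of the other 32 genes 10 had only short ones (31.2%). The coding regions of the 40 long non-coding RNA genes had a median of 151.5 nt after a median of 228 nt of 5′ sequence, beside 237 nt after 169 nt in the protein-coding genes.

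Of the 331 short coding regions in genes with a longer one, 252 shared over 50% of their bases in frame with the longest coding region of the gene (76.1%, Wilson interval 71.3 to 80.4). The longest one had a median of 564 nt. The commonest form, 127 of 331 (38.4%), ended at the same stop codon and began at a later start. The next, 95 of 331 (28.7%), began at the same start codon and ended at another stop. A further 36 (10.9%) shared part of the frame and neither end, 30 (9.06%) overlapped in another frame, 30 (9.06%) shared no base and 13 (3.93%) had both ends in common.

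**Figure D4:**
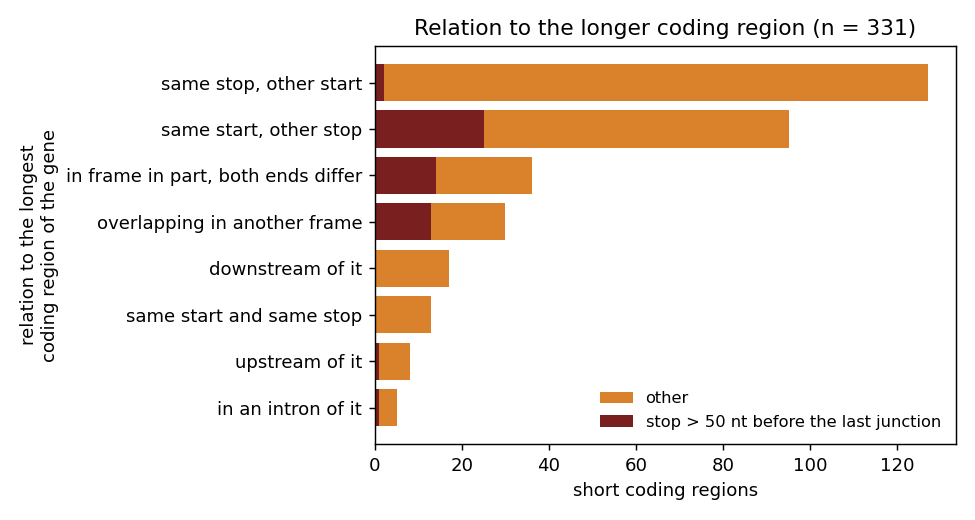
Number of short coding regions (horizontal axis) by their relation to the longest coding region of the same gene (vertical axis), with dark bars for those whose stop lies over 50 nt before the final exon junction. Shared stop (127) and shared start (95) are the longest bars, and the dark portion is 2 of the former and 25 of the latter.

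Regions with the shared stop lay at the carboxy-terminal end of the longer coding region. In 121 of 127 every base was in frame with the longest coding region. The 5′ untranslated region before them had a median of 280 nt. In 49 of 127 (38.6%) the start codon of the longest coding region lay inside an exon of the short model, and in the others it did not. XRN2, a nuclear exonuclease, had 267 nt beside 2853 nt in another model. DDX54, an RNA helicase, had 18 nt in 2 of its 4 models beside 2601 nt. ATP5MC2, the c-ring subunit of the ATP synthase, had 51 nt beside 426 nt, PAM16 of the import motor 15 nt beside 378 nt, and MRPS16 of the mitochondrial ribosome 156 nt beside 414 nt. NDUFB2 of complex I had 126 nt beside 318 nt.

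Regions with the shared start began at the amino-terminal end of the longest coding region, and not all their bases stayed in its frame. The share of their bases in frame with it had a median of 81.6% and a minimum of 18.9%. In 36 of 95 that share was 90% or more. Their 5′ untranslated regions had a median of 99 nt and their 3′ untranslated regions 605 nt. The stop codon of the longest coding region still lay inside an exon of the short model in 54 of 95 (56.8%). HERC2, a giant ubiquitin ligase, had 216 nt beside 2901 nt, with 33.3% of the short region in frame. PKP2, a desmosomal plakophilin, had 240 nt beside 2514 nt (92.9% in frame). MAD2L1, the spindle checkpoint protein, had 273 nt beside 618 nt (80.6% in frame). NDUFAF2, a complex I assembly factor, had 234 nt beside 510 nt (92.7%), and CENPX, a centromere protein, 285 nt beside 396 nt (49.8%).

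Some short coding regions overlapped the longest one in another frame. ETV5, an ETS factor, had 126 nt beside 1533 nt. BIRC5, survivin, had 75 nt beside 498 nt, ATF5 180 nt beside 849 nt and BAD, a BH3-only protein, 138 nt beside 507 nt. Of the 30 that shared no base, 17 lay downstream of the longest coding region, 8 upstream and 5 in an intron of it. UQCRQ of complex III had 249 nt upstream of 333 nt, and CLDN6, a claudin of early epithelia, 252 nt downstream of 663 nt. The 13 with both ends in common stayed in frame throughout and lacked an internal piece: H2AZ2, a histone variant, had 273 of 387 nt, TAX1BP3, a PDZ protein, 99 of 125 codons and FLAD1, an FAD synthase, 291 of 1473 nt.

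Of the genes with a longer coding region too, 273 had a single short one (91.9%), as did 187 of the 201 genes with only short ones, and a few of either kind had many. IFI27L1, a relative of the interferon-inducible protein IFI27, had 7 in 13 models, from 72 to 282 nt, beside a longest one of 315 nt. FAM120AOS had 5, of 75, 177, 213, 225 and 246 nt. PMS2P1, a pseudogene of the mismatch repair gene PMS2, had 4, of 78, 84, 168 and 261 nt.

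Stop codons placed as in targets of nonsense-mediated decay, over 50 nt before the final exon junction, were found in 89 of 552 short coding regions (16.1%, Wilson interval 13.3 to 19.4), beside a background of 3.3% of all coding regions. At 300 to under 400 nt the share was 124 of 1391 (8.91%). The share was 14.9% in genes with only short coding regions (33 of 221) and 16.9% in genes with a longer one (56 of 331). By form it was 13 of 30 in another frame (43.3%), 14 of 36 with neither end shared (38.9%) and 25 of 95 with the shared start (26.3%). It was 2 of 127 with the shared stop (1.57%) and 0 of 13 with both ends shared (Wilson interval up to 22.8%). Regions of these last forms end where the longest coding region ends, by the way the forms were defined. Their shares therefore also reflect where that stop lies. SRSF8, a splicing factor, TINCR, a former non-coding RNA gene now listed with a small protein, and ANAPC13 were among those with only short coding regions. Their stops lay 108, 126 and 56 nt before the final junction, so ANAPC13 was close to the cut of 50 nt. Position alone does not show that a message was degraded.

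The 5′ untranslated length of short members went with their coding length. Split by coding length, its median was 346.5 nt below 100 nt, 220 nt at 100 to 199 nt and 127 nt at 200 to 299 nt. The last of these was below the 137 nt of all coding regions, and at 300 to under 400 nt the median was 158 nt. The smallest sum of 5′ and coding length in a short model was 99 codons. That sum sets a least 5′ length, which is greater the shorter the coding region, so these medians are not free of it. How far it raised them was not tested. By kind of gene the median was 177.5 nt in genes with only short coding regions (quartiles 98 and 273 nt) and 191 nt in genes with a longer one (106.5 and 341.5 nt), beside quartiles of 65 and 255 nt over all coding regions. The 3′ untranslated medians were 552 nt, 484 nt and 447 nt. Whole models were shorter, with medians of 952 nt and 935 nt against 1665 nt, and had a median of 3 and 4 exons against 7. A coding region within 1 exon was found in 23.4% of the 552 (background 5.12%). The lowest 5′ length was 202 nt for coding regions below 100 nt and 108 nt at 100 to 199 nt. Given the smallest sum of 99 codons, lengths far below these were not possible at such coding lengths. Within a gene, the short coding region had the longer 5′ region in 203 of 331 cases (61.3%) and the longer 3′ region in 157 (47.4%). The same limit applied to the short 5′ regions counted there.

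**Figure D5:**
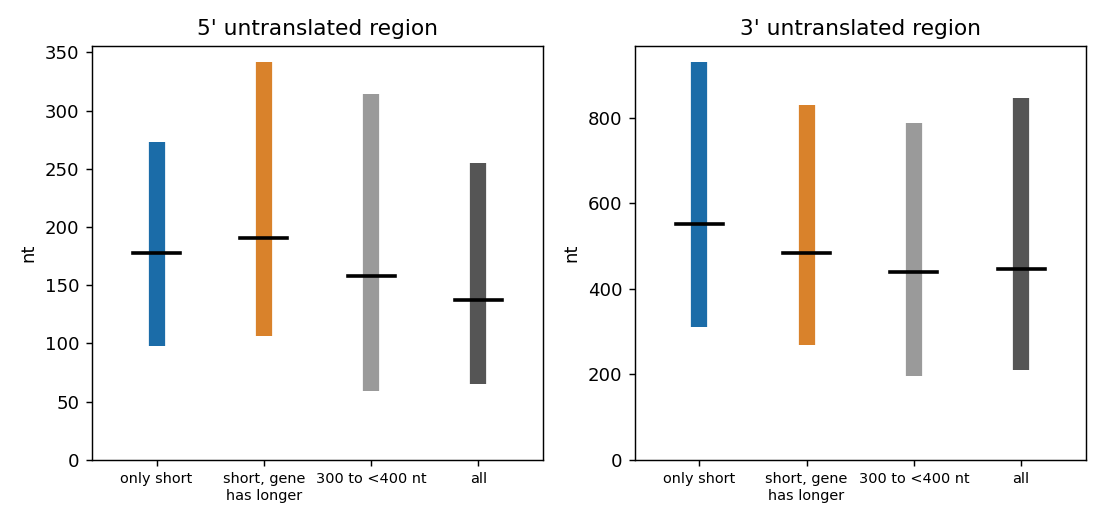
Median (black line) and quartiles (bar) of the 5′ and 3′ untranslated lengths in nt for short coding regions of both kinds of gene, for coding regions of 300 to under 400 nt and for all. The 5′ medians of 177.5 and 191 nt stand above the 137 nt of all coding regions. The smallest sum of 5′ and coding length in a short model was 99 codons, which sets a least 5′ length for short regions. How far it raised these medians was not tested.

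The 10 longest 5′ untranslated regions preceded coding regions across the class, from 3 to 99 codons. MIIP, an inhibitor of cell migration, had 1058 nt before 78 nt, and WDR73, a WD-repeat protein, 1028 nt before 126 nt. SH3YL1, a lipid-binding adaptor, had a mean of 1024.5 nt before 9 nt over 4 of its 7 models. Each of these shared the stop codon of a longer coding region. CAAP1 had 660 nt before 99 codons, MRM2, a mitochondrial rRNA methyltransferase, 660 nt before 279 nt, and IGFLR1, a receptor of the tumour necrosis factor receptor type, 697 nt before 240 nt. After SNN the longest 3′ untranslated regions were those of DPH3, a diphthamide synthesis protein, with 2780 nt and IRS4, an insulin receptor substrate, with 2568 nt.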

How the data were processed

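RNA of H9 embryonic stem cells and derived neural progenitors was sequenced with long and short reads. The authors deposited a catalogue of exon and coding segments, whose start and end positions (unit: other, genome positions counted from 1) were the measurement here. STAR 2.7.8a and Salmon 1.9.0 are named in the submitters' processing notes. Which tool built the models or predicted coding regions, on which genome build, with which filters and from which libraries: not given in the sources used here. Of 19558 models with a RefSeq gene on GRCh38.p14, 19498 overlapped its span (99.7%).

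Coding, untranslated and exon lengths were computed with Python 3.11.15 and pandas 2.3.3, averaged over models sharing a coding region, and tested on simulated models. Symbols were matched to RefSeq: 9056 by symbol, 116 by synonym, 10 by Ensembl identifier, 278 not. All 14815 coding lengths were divisible by 3. Sequences were read from RefSeq windows of 250 bases before to 50 after gene starts. With a single catalogue there is no replicate and no test was run.

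The members and lists were chosen with earlier results of these data known. Genes to name were drawn from these lists: the 3 shortest per family, the 10 at each extreme (shortest, largest difference from the longest, longest 5′ and 3′ regions, most regions) and 5 on each side of the limit. The text names only some of them. That choice, and all other genes named, followed after their values were seen. Alternatives are given in the closing section.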

Additional observations from a re-analysis of the deposited data

How the results depend on the processing

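For 9 results, 48 alternatives were computed, and 45 left the value within its counting interval or within 1.5 times for counts, 3 moved it and 0 reversed it. With only genes that RefSeq lists as protein-coding, genes with only short coding regions fell to 125 and the share of short coding regions with a stop placed for decay was 12.6%. With over 90% of bases required in frame, the share in frame with the longest coding region was 54.98%. The comparison with RefSeq protein lengths was planned and not run, because it needs lengths not used here. No paired analysis was possible because the catalogue has no value per library and no test was run. Sequence-based counts cover only coding regions near RefSeq gene starts, so few short ones could be read.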

Other observations

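Several families of small proteins had models without any coding region. Of 8 genes for G protein gamma subunits with a model, 7 had no coding region and 1 had a longer one. Of 82 cytosolic ribosomal protein genes the 7 without one were RPL38, RPL39, RPL39L, RPL41, RPS27, RPS27L and RPS28. Of 33 complex IV genes 8 had none, and of 26 import genes 6 had none: TIMM8B, TIMM9, TIMM10, TOMM5, TOMM6 and TOMM7. The thymosin genes TMSB10, TMSB15A and TMSB4X had none, of 6 with a model. Over the whole catalogue 881 of 9460 genes had no coding region (9.31%). No value per library bears on these genes, and the reason was not tested.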
